A study of Mus musculus with 8 samples.

Results

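The complement genes described here are 8 members of the complement cascade and its regulators, C1s1, C1ra, C3, C4b, Cfb, Serping1, Cd55 and Masp1. They were taken as every probe set of the deposited signal table that names 1 of these genes alone, under its current or its older symbol (C1s, C1r, C4, H2-Bf and Daf1 in the table's annotation). The rule gave 12 probe sets, 4 for Masp1, 2 for Cd55 and 1 for each other gene, of 22690 on the array. The table names 13243 genes in this way. The genes were chosen by the signals of these same arrays, the difference between BMP7 and vehicle cells being known, so their differences between the groups are given as a description, without a test.

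All samples were C3H10T1/2 cells, a mouse mesenchymal line of embryonic origin for which the labels name no engineered allele, grown to confluence. The vehicle group of 4 samples received vehicle for 3 days and the BMP7 group of 4 received 3.3 nM BMP7, a bone morphogenetic protein whose receptors activate SMAD proteins, for 3 days. Each sample was hybridised to 1 Affymetrix Mouse Genome 430A array and gave a MAS5 signal, the linear brightness that summarises a probe set. The labels number the samples but do not say whether they were separate cultures, and they name 1 line, so the spread between samples may be technical.

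Complement is a cascade of plasma proteases and their substrates that marks targets for uptake and builds a membrane pore. The classical route starts when C1q binds a target and its protease partners C1r and C1s are activated, and C1s then cleaves C4 and C2. The lectin route uses MASP proteases in place of C1r and C1s, and the alternative route amplifies C3 cleavage through factor B. C1 inhibitor, the product of Serping1, and the membrane protein Cd55 restrain these steps. The liver makes most plasma complement, and fibroblasts are known to make several components locally, among them C1r, C1s and C3, in amounts that respond to cytokines.

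Promoters are shown for the genes whose BMP7 signals all lay below all vehicle signals on at least 1 probe set, which were C1s1, C1ra, C3 and Cd55. The RefSeq promoter table (GRCm38.p6) has entries for these 4 of the 8 genes. Each line gives the 250 bases before a transcript start of that table, 5′ to 3′ on the gene's strand, with capitals marking the motif matches described after the list. C1s1 has 2 such starts 38 bases apart, and the upstream one is printed. The Cd55 window lies inside the annotated span of the gene and the C1s1 window overlaps its edge, so both genes are annotated to begin further upstream.
C1s1 (chr6:124542360-124542609, minus strand): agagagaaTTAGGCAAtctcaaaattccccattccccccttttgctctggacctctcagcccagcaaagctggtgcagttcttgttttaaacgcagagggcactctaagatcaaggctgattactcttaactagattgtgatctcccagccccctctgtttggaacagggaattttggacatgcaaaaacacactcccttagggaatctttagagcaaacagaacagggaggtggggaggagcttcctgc
C1ra (chr6:124512371-124512620, plus strand): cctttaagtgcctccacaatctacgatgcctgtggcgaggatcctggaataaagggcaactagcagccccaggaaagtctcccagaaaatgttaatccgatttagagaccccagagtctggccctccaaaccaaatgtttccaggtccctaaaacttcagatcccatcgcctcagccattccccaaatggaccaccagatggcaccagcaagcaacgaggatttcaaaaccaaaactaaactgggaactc
C3 (chr17:57228137-57228386, minus strand): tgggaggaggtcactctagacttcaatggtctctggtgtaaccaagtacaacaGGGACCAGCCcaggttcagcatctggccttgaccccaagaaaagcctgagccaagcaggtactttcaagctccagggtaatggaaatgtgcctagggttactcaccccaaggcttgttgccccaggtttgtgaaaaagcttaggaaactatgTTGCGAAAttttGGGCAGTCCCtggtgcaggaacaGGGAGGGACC
Cd55 (chr1:130462745-130462994, minus strand): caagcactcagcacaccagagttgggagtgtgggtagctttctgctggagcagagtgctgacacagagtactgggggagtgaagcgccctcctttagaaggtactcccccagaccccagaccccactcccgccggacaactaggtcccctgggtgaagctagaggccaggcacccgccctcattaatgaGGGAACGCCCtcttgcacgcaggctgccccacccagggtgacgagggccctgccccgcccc

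These windows were searched on both strands for 6 letter patterns, and no 2 of the matches in the printed windows overlapped. The NF-kB pattern GGGANNNNCC, which 17.6% of all 32851 promoter windows of this length hold, had 3 matches in C3, the first base of each lying 197, 33 and 10 bases before the start, and 1 match in Cd55, 61 bases before it. The C/EBP pattern TTGCNNAA (9.56% of windows) matched once in C3, 45 bases before the start, and once in C1s1, 242 bases before it. The interferon-stimulated element GAAANNGAAA (2.98%), the STAT-binding pattern TTCNNNGAA (7.02%), the SMAD pattern GGCGCC (9.59%) and the TATA box TATAAA (12.4%) had no match in the 4 windows. The C1ra window held none of the 6 patterns, and the window of the other C1s1 start, not printed, held 1 NF-kB match 35 bases before it. A match describes letters in a window and is not evidence of binding.

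On the 8 arrays, C3H10T1/2 cells carried the signal of a mesenchymal line. All 10 mesenchymal markers (such as Col1a2, Vim and Pdgfra) lay above the signal filter, a mean of about 325, and their summed signal ran from 348323 to 507424 in vehicle and from 270992 to 327642 in BMP7 arrays, without overlap. Of 10 macrophage markers 4 lay above it, and the 10 had sums of 3384 to 4475 and 3393 to 4417. The 4 were Cd14, with means of 1175 in vehicle and 935 in BMP7 cells, Csf1r (781 and 935), Lyz2 (498 and 482) and Adgre1 (493 and 457). Ptprc, the pan-leukocyte marker, had means of 150 and 129. Of 10 hepatocyte markers 3 lay above the filter, Hnf4a (418 and 366), Serpina1a (487 and 351) and Cyp2e1 (356 and 327). The 10 had sums of 2289 to 2801 and 1158 to 2158, and the defining liver gene Alb had means of 339 and 198. None of 6 epithelial and 1 of 6 endothelial markers lay above it. The part of these marker shifts in the results was not tested, and in bulk RNA fewer cells of a type and less RNA per cell cannot be told apart. Vehicle replicate 3 stood apart: signal at the 3′ end of Actb was 6.55 times that at its 5′ end, against 1.17 to 1.40 on the other arrays. That ratio is used as a sign of RNA quality. Differences of the 8 genes that change by more than 0.1 (log2) without that array are given with that value as well.

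C1s1 and C1ra encode the 2 proteases of the C1 complex, and both were lower in BMP7 cells. C1s1 (probe set 1424041_s_at, chromosome 6) had signals of 3829, 6096, 3961 and 2705 on vehicle replicates 1 to 4. On BMP7 replicates 1 to 4 it had 849, 510.2, 325 and 419. The lowest vehicle array was thus above the highest BMP7 array. The means were 4148 ± 1416 and 526 ± 228 (SD, n = 4 each), 7.83-fold lower by mean log2 with BMP7, a log2 difference of -2.97 ± 0.37 (SE) on the log2(signal + 16) scale, and -2.97 without vehicle replicate 3. The probe set is of a type that can match related transcripts, and mouse chromosome 6 carries further copies of the pair, C1rb and C1s2, next to C1ra and C1s1. No probe set of the table is named for either copy, so signal from them cannot be separated.

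C1ra (1417009_at), which neighbours C1s1 on chromosome 6, had vehicle signals of 1802, 1758, 2079 and 1397. Its BMP7 signals were 726, 499, 475 and 626, again with no overlap. The means were 1759 ± 280 and 582 ± 117, a log2 difference of -1.58 ± 0.18, and -1.49 without vehicle replicate 3. The spread among arrays was narrower than for C1s1, with a coefficient of variation of 15.9% in vehicle and 20.2% in BMP7 cells, against 34.1% and 43.4%. On both probe sets BMP7 replicate 1 was the highest of its group and replicate 3 the lowest.

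C3, the central component on which all routes converge, was the other component with separate groups. Its probe set (1423954_at, chromosome 17) had 1234, 677, 951 and 407 on the vehicle arrays. On BMP7 replicate 1 it had 329.6, and on replicates 2 to 4 it had 33.7, 41.6 and 57.1. BMP7 replicate 1 lay close to the lowest vehicle array and far from its own group. The means were 817 ± 356 and 116 ± 143, a log2 difference of -3.06 ± 0.73, -2.96 without vehicle replicate 3 and -3.70 without BMP7 replicate 1. The mean log2 over all 8 arrays put this probe set below the filter, so it was not among those tested, and with low signals the size of the difference depends on the pseudocount.

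**Figure D1:**
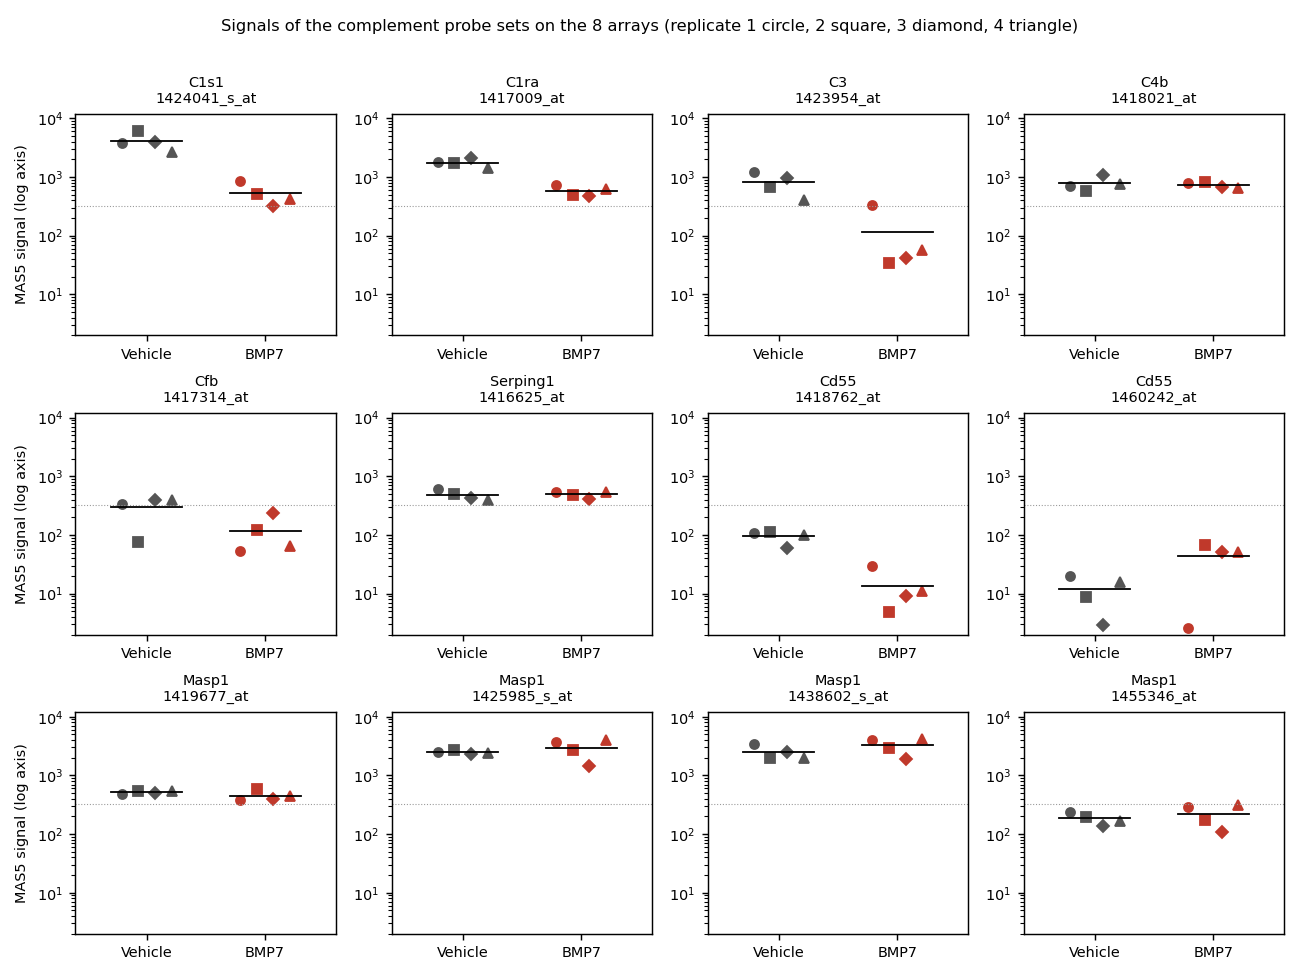
MAS5 signal (log axis) of each of the 12 complement probe sets on the 4 vehicle (grey) and 4 BMP7 arrays (red), with marker shapes for replicates 1 to 4, a black line at the group mean and a dotted line at the filter's signal of about 325. The groups are apart for C1s1, C1ra, C3 and the Cd55 probe set 1418762_at, and overlap for the other 8 probe sets.

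The groups overlapped for the later substrate C4b and for factor B. C4b (1418021_at, chromosome 17), the component that C1s cleaves, had 706, 579, 1064 and 766 in vehicle and 796, 817, 669 and 658 in BMP7 cells. Every BMP7 value lay inside the vehicle range. The log2 difference was -0.05 ± 0.20, and 0.11 without vehicle replicate 3, which had the highest signal. Its sequence is close to that of C4a, a nearby copy on chromosome 17 for which no probe set is named, so the 2 transcripts cannot be told apart.

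Cfb (1417314_at, chromosome 17), factor B of the alternative route, had 338, 74.8, 388 and 393 in vehicle and 52.7, 121, 234 and 64.7 in BMP7 cells. The groups overlapped because vehicle replicate 2 was lower than 2 of the BMP7 arrays. The log2 difference was -1.20 ± 0.67, -1.01 without vehicle replicate 3 and -1.73 without vehicle replicate 2. Without the latter array the groups would be apart. The mean lay below the filter.

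The lectin-route gene Masp1 has 4 probe sets on chromosome 16, and they differed among themselves. On 1425985_s_at the vehicle signals were 2527, 2728, 2360 and 2437, and the BMP7 signals were 3756, 2677, 1422 and 4027. The vehicle arrays lay close together and the BMP7 arrays spread above and below them, with a coefficient of variation of 6.31% in vehicle and 39.9% in BMP7 cells. On 1438602_s_at the vehicle signals were 3465, 1994, 2470 and 1998, and the BMP7 signals 4085, 2914, 1934 and 4168. On 1455346_at, below the filter, they were 239, 198, 136 and 168, and 294, 171, 108 and 319. These 3 probe sets ranked the BMP7 arrays alike, with replicate 4 highest, then 1, then 2, and replicate 3 lowest. The fourth, 1419677_at, did not follow that order, with 491, 534, 499 and 544 in vehicle and 386, 581, 393 and 444 in BMP7 cells. The log2 differences were 0.13 ± 0.34, 0.37 ± 0.32, 0.16 ± 0.37 and -0.21 ± 0.14 in the order given, and the groups overlapped on each. Single arrays moved these values. Without BMP7 replicate 3 the first became 0.45, the second 0.60 and 1455346_at 0.44, while without BMP7 replicate 4 they became -0.05, 0.23 and -0.04. Without BMP7 replicate 1 the first was -0.01, the second 0.24 and 1455346_at 0.0029. Without vehicle replicate 3 the value for 1455346_at was 0.04, and without vehicle replicate 1 it was 0.29. The difference on 1419677_at ran from -0.33 without BMP7 replicate 2 to -0.14 without BMP7 replicate 1. The 2 probe sets ending _s_at can match related transcripts, and the files do not say which Masp1 isoform each probe set reads.

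**Figure D2:**
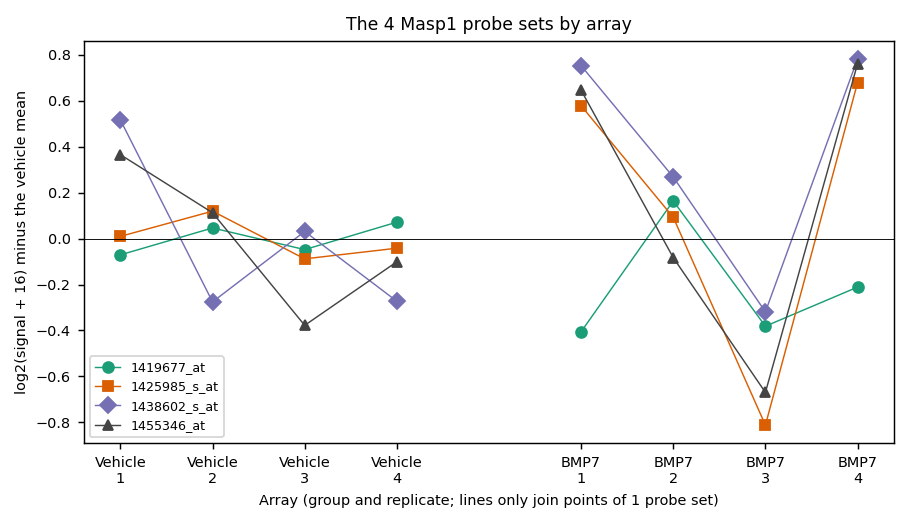
log2(signal + 16) of the 4 Masp1 probe sets on each array, minus that probe set's vehicle mean; lines join the points of 1 probe set and mean no order. Probe sets 1425985_s_at, 1438602_s_at and 1455346_at are high on BMP7 replicates 1 and 4 and low on replicate 3, while 1419677_at is below 0 on all 3 of these arrays.

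The 2 regulators showed no shared direction. Serping1 (1416625_at, chromosome 2), whose product inactivates C1r, C1s and the MASPs, had 603, 506, 426 and 397 in vehicle and 546, 470, 413 and 531 in BMP7 cells. The ranges lay on top of each other, at a log2 difference of 0.03 ± 0.16 that took the other sign without vehicle replicate 3 (-0.02), without BMP7 replicate 1 (-0.02) and with quantile normalization (-0.06). Cd55, the membrane protein that speeds the decay of C3 convertases, had low signals on both probe sets, below the filter, and has a close copy, Cd55b, next to it on chromosome 1. On 1418762_at the vehicle signals were 108, 111, 60.2 and 97.7, and the BMP7 signals 29.2, 4.90, 9.10 and 11.1, without overlap. On 1460242_at they were 20.1, 8.90, 2.90 and 15.9, and 2.60, 67.7, 51.5 and 50.9. The 2 probe sets thus pointed in opposite directions, with log2 differences of -1.93 ± 0.29 and 0.92 ± 0.54, and of -2.10 and 0.75 without vehicle replicate 3. The second was 1.41 without BMP7 replicate 1, whose signal of 2.60 was far below the rest of its group. At such signals no direction for Cd55 can be given from the pair, and the size of the first moved from -2.93 to -1.03 as the pseudocount went from 1 to 64.

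Over the 12 probe sets, 7 had a lower and 5 a higher mean log2 signal in BMP7 cells. Their median log2 difference was -0.13, against 0.0025 over all probe sets other than controls and 0.04 over the 13576 probe sets tested. All BMP7 arrays lay below all vehicle arrays on 4 of the 12, and on none did all lie above. Among all 22626 probe sets other than controls, 5.6% had such a separation downward and 5.88% upward. Among the tested probe sets these shares were 7.1% and 8.3%. Of the 7 member probe sets that passed the filter, 2 were called lower in the fit over all tested probe sets (limma, adjusted p under 0.05) and none higher. In that fit 1.5% of tested probe sets were called lower and 1.63% higher, 3.13% in all, and 21.8% had an unadjusted p under 0.05. These are C1s1 and C1ra, and since they were chosen with this contrast known the count is a description. Only probe sets with a sufficient mean enter that fit, so C3, Cfb, both Cd55 probe sets and 1 of Masp1 are not in it.

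**Figure D3:**
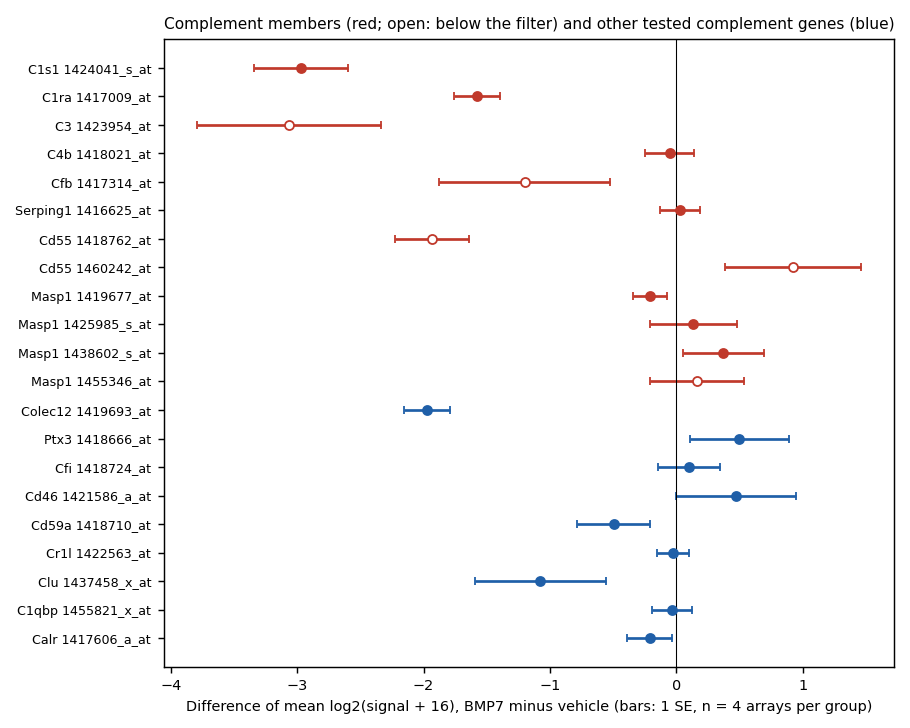
Difference of mean log2(signal + 16), BMP7 minus vehicle, with bars of 1 SE (n = 4 arrays per group), for the 12 complement probe sets (red, open where below the filter) and the 9 other complement genes tested (blue). C1s1, C1ra, C3 and the Cd55 probe set 1418762_at lie between -3.06 and -1.58, and C4b, Serping1 and the 4 Masp1 probe sets between -0.21 and 0.37.

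The genes whose profile over the 8 arrays was most like that of C1s1 were sought among 8369 other genes, as the smallest root-mean-square difference between log2 profiles centred on their own means. They were Selenop, a selenium transport protein (0.29), the receptor chaperone gene Rtp4 (0.37), the adhesion molecule gene Vcam1 (0.37), the aminopeptidase gene Anpep (0.44) and the lipocalin gene Apod (0.48). Selenop had 14912, 15513, 12305 and 7458 in vehicle and 3986, 1311, 1220 and 1257 in BMP7 cells. Like C1s1, it was lowest on replicate 4 of the vehicle group and highest on replicate 1 of the BMP7 group. Within the complement genes, C1ra lay at 0.78 and C3 at 0.67, and 29 and 12 of the other genes were closer to C1s1. With pseudocounts of 1 and 64, tried after the data were seen, the closest 5 genes were the same, C1ra lay at 0.79 and 0.75 and C3 at 0.78 and 0.55. The Cd55 probe set 1418762_at lay at 0.57, 0.65 and 0.99 with pseudocounts of 1, 16 and 64, so its place rests on that choice. C4b, Serping1, Cfb and the Masp1 probe sets lay between 1.47 and 1.74, and the other Cd55 probe set at 2.20. The measure counts both the difference between groups and the spread inside them, over arrays shared by every gene, and no test was made.

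**Figure D4:**
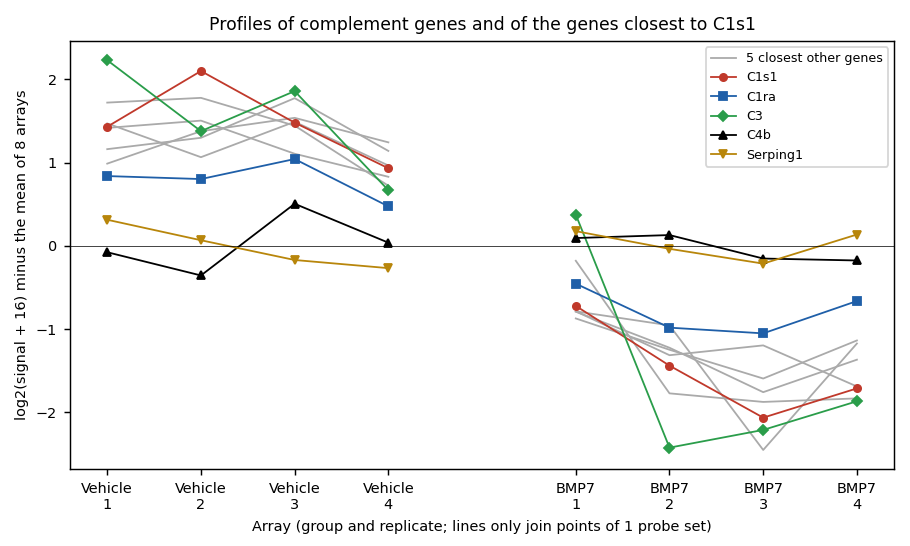
log2(signal + 16) on each array minus the mean over the 8 arrays, for C1s1, C1ra, C3, C4b and Serping1 and for the 5 other genes closest to C1s1 (grey: Selenop, Rtp4, Vcam1, Anpep and Apod). C1s1, C1ra and the grey genes are above 0 on every vehicle array and below 0 on every BMP7 array, C3 is above 0 on BMP7 replicate 1, and C4b and Serping1 lie on both sides of 0 in each group.

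The rest of the complement system was followed through 55 genes that are not among the 8, of which the array measures 45 and 9 passed the filter. Of these 9, 1 fell and none rose in limma (2 at an unadjusted p under 0.05), beside 1.73% of all tested genes that fell, 1.56% that rose, 3.3% in all and 21.0% at an unadjusted p under 0.05. Their median log2 difference was -0.03, against 0.00 over all tested genes. The gene that fell was Colec12, a scavenger receptor of the collectin family, which binds carbohydrates as the lectin-route recognition proteins do. Its signals were 3245, 3578, 4889 and 3753 in vehicle and 943, 913, 801 and 1245 in BMP7 cells. The lowest vehicle array lay above the highest BMP7 array, with a log2 difference of -1.97 ± 0.21 (SE from limma, adjusted p 0.00127). The highest adjusted p in the 8 limma fits without 1 array was 0.00940. Ptx3, a pentraxin that binds C1q, had means of 10568 ± 5451 and 13736 ± 2679, a log2 difference of 0.50 that did not pass (limma, adjusted p 0.381).

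None of the 11 other components measured, from the C1q chains C1qa, C1qb and C1qc, through C2, to the terminal genes C6, C8a, C8b, C8g and C9, reached the filter. C1qa had a mean of 28.5 in vehicle and 38.3 in BMP7 cells, and C2, the other substrate of C1s, had 55.5 and 37.8. The partner that recruits C1r and C1s was therefore at low signal in both groups. Among membrane and fluid-phase regulators 6 genes were tested and none passed limma's test (1 at an unadjusted p under 0.05). These were Cfi, which cleaves C3b and C4b (659 ± 153 and 713 ± 198, log2 difference 0.10), the cofactor Cd46 (0.47), Cr1l, the rodent regulator of C3 convertases (2323 ± 369 and 2258 ± 136, -0.03), Cd59a, which blocks the membrane pore (-0.50), C1qbp, a C1q-binding protein (-0.03), and the pore inhibitor clusterin, Clu (-1.08). The adjusted p lay between 0.161 for Clu and 0.947 for Cr1l. The Clu probe sets, 4 in number, all had lower BMP7 means, and on the one given vehicle replicate 3 was the highest array at 10379, while the other tested probe sets of Cd59a and C1qbp went the other way from the values given. Of 9 complement receptor genes measured only Calr, a C1q-binding chaperone, was tested (28776 ± 6494 and 24487 ± 2815, adjusted p 0.519).

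Below the filter, and chosen after its values were seen, the complement regulator gene Susd4 also had separate groups. It had 98.6, 238, 173 and 221 in vehicle and 9.70, 27.2, 18.4 and 21.6 in BMP7 cells. Its means were 183 ± 62.5 and 19.2 ± 7.32. It was not tested in the fit reported here and passed when no filter was set.

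Receptors and transcription factors known to drive complement genes were followed in a list of 28, of which 25 were tested. Irf1, an interferon-induced transcription factor, fell and none rose in limma (6 at an unadjusted p under 0.05), beside the shares of 1.73%, 1.56% and 21.0% over all genes. A negative log2 difference was found for 19 of the 25 and for 49.5% of all tested genes, with medians of -0.24 and 0.00. Irf1 had 2303, 2199, 2916 and 2897 in vehicle and 1221, 1603, 1408 and 1591 in BMP7 cells. The groups were apart, with a log2 difference of -0.81 ± 0.19 (adjusted p 0.0439), but the call was lost without vehicle replicate 1 or 4 or without any BMP7 array, with an adjusted p of up to 0.149, and with no filter (0.0506). Closest to the threshold on the lower side were the NF-kB subunit gene Nfkb2 (992 ± 250.2 and 473 ± 164, log2 difference -1.07, adjusted p 0.0708) and the interferon-signalling factor gene Irf9 (1299 ± 315 and 698 ± 172, -0.88, adjusted p 0.0835), which did not pass in limma. Nfkb1, another NF-kB subunit gene (adjusted p 0.320), Cebpb (0.286), Cebpd (0.589), the interferon-gamma receptor genes Ifngr1 (0.593) and Ifngr2 (0.319) and the shared IL-6 receptor chain Il6st (0.192) did not pass either. Cebpa had 1006 ± 224 in vehicle and 1800.5 ± 365 in BMP7 cells, with all BMP7 arrays higher and an adjusted p of 0.0686.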

How the data were processed

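RNA of 8 samples was hybridised to 8 Affymetrix 430A arrays. The authors deposited a linear intensity per probe set; the submitters' processing notes name MAS5, without a version. The table whose columns are named by sample gave each array its group and replicate number. A second deposited table gave the annotation, group means and, per the file headers, the authors' ratio of BMP7 over control; its means equalled those of the labelled samples within 0.01 signal units, and its 8 array-coded signal columns were not used. Trimmed means of the arrays, without 2% at each end, lay between 1499.4 and 1499.9, so the authors had scaled all arrays alike.

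Of 22690 probe sets, 64 are Affymetrix controls and 21454 name 1 gene, 20828 of which were renamed or checked through Entrez identifiers in RefSeq (GRCm38.p6). The sources used here do not give the annotation's build. Values were analysed as log2(signal + 16), a scale that understates changes of low signals. The 13576 probe sets whose mean log2 reached 8.41, the 40th percentile, were tested with limma 3.58.1 in R 4.3.3 (lmFit, eBayes with a trend, two-sided, no block), adjusted by Benjamini-Hochberg at a threshold of 0.05; the fit was tested on simulated data. A gene was represented by the brightest of its tested probe sets. Groups have 4 arrays each, which limits the precision.

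The members and lists were chosen with earlier results of these data known. Named genes were all members, every list gene past the threshold, the tested gene with the highest mean in each complement role and the 5 genes most like C1s1; others, such as the inducers and regulators that did not pass, were named after their values were seen. Deviations of same-numbered arrays correlated above 0.1 in 3 of 4 pairs, not in all, so the numbers were not taken as pairs. Some genes are not reported here. Alternatives were the pseudocount, filter, scaling, variance trend, array weights, replicate block, probe set choice and leaving out each array.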

Additional observations from a re-analysis of the deposited data

Results flagged for a closer look

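The C3 signal of 329.6 on BMP7 replicate 1 lay far from the other BMP7 arrays, whose highest was 57.1 and lowest 33.7. Its gap to the nearest array was 0.921 of the group's range, more than Dixon's 95% limit for 4 samples. The C3 signal was the only case among 32 groups of 4 examined as linear signals. For normally distributed values, chance alone gives such a case in about 5% of groups. Selenop, the gene most like C1s1, was not among the 32. It also had a high signal on BMP7 replicate 1, at 3986 against 1220 to 1311 on the other BMP7 arrays. BMP7 replicate 1 was the highest of its group on 5 of the 12 complement probe sets and the lowest on 3, and vehicle replicate 1 was the highest of its group on 5 as well. The Actb 3′/5′ ratio of BMP7 replicate 1 was 1.17, against 1.18 to 1.19 on the other BMP7 arrays.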

How the results depend on the processing

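The number of member probe sets lower in BMP7 cells, 7 of 12, lay between 7 and 10 without 1 array and was 8 under both other scalings. Under every alternative run that included them, C1s1, C1ra, C3, Cfb, Cd55 1418762_at and Masp1 1419677_at had a negative difference, and Cd55 1460242_at and Masp1 1438602_s_at a positive one. The sign turned for Serping1 in 7 of 15, for C4b and Masp1 1455346_at in 2 of 15 each and for Masp1 1425985_s_at in 2 of 14. Member probe sets past the threshold numbered 4 of 12 with no filter, where 168 of all 22626 probe sets rose and 181 fell. C3 and Cd55, both with low BMP7 signals, were the members added there. The number was 1 of 4 when the suffixes _x_at, _s_at and _a_at were left out, C1s1 with them, where 190 of 8695 rose and 142 fell. It was 2 without any 1 array. As the members were chosen with this contrast known, these counts are a description. Over all probe sets 221 rose and 204 fell, and with array weights 1013 and 765. With the replicate number as a block 374 rose and 278 fell, and correlations of same-numbered deviations were 0.383, 0.0365, 0.152 and 0.187 for replicates 1 to 4. Every vehicle array correlated best with its own number, as did each BMP7 array except replicate 2, a hint from the data and not the design. Without 1 array 39 to 702 rose and 51 to 382 fell. Other complement genes that fell numbered 2 with no filter and 1 without any 1 array. Inducers that fell numbered 0 when no filter was set, when eBayes had no trend and when those suffixes were left out, 4 with array weights, 2 with the replicate block, Irf1 and Nfkb2, and 0 to 1 without 1 array. Inducers that rose numbered 1, Cebpa, with array weights or when all probe sets of a gene were averaged, and 0 to 1 without 1 array. Coagulation genes that rose numbered 0 with the filter at the 60th percentile and 2 with quantile normalization. Those that fell numbered 3 with array weights, 2 with the replicate block and 0 to 2 without 1 array. The cause of these changes was not tested. Low signals of C3 and Cfb in BMP7 cells, and of Cd55 in both groups, limit what can be said of the sizes of their differences.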

Other observations

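The neighbouring protease cascade, coagulation and fibrinolysis, was measured through 36 genes, of which 14 were tested, 1 rose and 1 fell in limma (6 at an unadjusted p under 0.05), beside 1.56%, 1.73% and 21.0% of all tested genes. The anticoagulant receptor gene Thbd had 3218, 2398, 2129 and 2243 in vehicle and 1442, 844, 541 and 894 in BMP7 cells, a log2 difference of -1.47 ± 0.28 (adjusted p 0.0218), and its call was lost without vehicle replicate 1 or BMP7 replicate 2, 3 or 4 (highest adjusted p 0.0842). The serpins Serpinf1 and Serpine2, chosen after their values were seen, had high signals in both groups (adjusted p 0.468 and 0.943 in limma).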
